A study of Homo sapiens with 21 samples.

Results

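Leukocyte integrins are pairs of an alpha and a beta subunit that anchor white blood cells to other cells and to matrix, and the ICAM proteins are ligands of the beta2 integrins. The genes examined here were ITGAM, ITGAX, ITGAL, ITGB2, ITGA4, ITGA5, ITGB1, ICAM1, ICAM2 and ICAM3, 7 integrin subunits and 3 ligands. They are 10 of the 12165 genes that the platform annotation names, and were read by every probe set it assigns to these symbols, 20 of the 22215 tested. ITGB1 had 5 probe sets, ITGA4 and ICAM1 had 3 each, ITGAM and ICAM2 had 2 each, and the other genes had 1 each. ITGAM, ITGAX and ITGAL lie on chromosome 16, ICAM1 and ICAM3 on 19, ITGB2 on 21, ITGA4 on 2, ITGA5 on 12, ITGB1 on 10 and ICAM2 on 17.

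RNA came from 3 human myeloid leukaemia lines on 21 Affymetrix HT U133A arrays. The promyelocytic line HL-60, the monocytic line MOLM-14, which carries an internal tandem duplication in FLT3, and U937, a monocyte-like line from a histiocytic lymphoma, were used. Each of them was transduced with the SYK hairpin shSYK_1 (2 arrays), the SYK hairpin shSYK_2 (2 arrays) or the hairpin shLuciferase, whose target human cells lack (3 arrays). All groups, shLuciferase included, received puromycin at 1 µg/ml from 48 h after infection and were harvested for total RNA at day 5, so every array reads transduced and drug-selected cells. The labels describe the replicates as repeated transductions of one line, and p-values therefore reflect variation among transductions within these 3 lines. Values are log2 intensities and differences are on the log2 scale.

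Beta2 integrins share the subunit ITGB2, which pairs with ITGAL (LFA-1), ITGAM (Mac-1) or ITGAX. When a beta2 integrin binds ligand, SRC family kinases phosphorylate adaptors that carry immunoreceptor tyrosine-based activation motifs, and the kinase SYK docks on these motifs and carries the signal to the cytoskeleton. ITGA4 and ITGA5 pair with ITGB1 to form receptors for VCAM1 and fibronectin, which hold myeloid progenitors in the marrow. ITGAM and ITGAX are also known as markers that rise as myeloid cells mature.

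The hairpins differ in the stretch of SYK they target, and several results below differ between them, so both target sites are given as the labels state them, in lower case throughout because no position is singled out. SYK lies on chromosome 9.
shSYK_1: gcagcagaacagacatgtcaa
shSYK_2: gcaggccatcatcagtcagaa

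One array has conflicting labels. HL-60 shSYK_2 replicate 1 is shSYK_2 by title and treatment but shSYK_1 by source name, and it was kept in shSYK_2. Its upper quartile of intensity was 122, against 134 to 140 on the other 20 arrays. ITGAM read 6.53 on it, 6.60 on the other HL-60 shSYK_2 array and 8.0 and 7.94 on the shSYK_1 arrays. The responses of HL-60 and the differences that rest on them are also given without it. Of the 8 myeloid markers listed, 6 were measured and all 6 lay above the dimmest 40% of probe sets by their mean over all arrays, whereas 0 of 5 endothelial markers did. CD14 and MPO passed through HL-60 (means 7.91 and 12.5): CD14 averaged 3.14 in MOLM-14 and 2.77 in U937, and MPO 3.34 in U937, under the 40th percentile of 3.57. PTPRC, CSF3R, SPI1 and CSF1R averaged above it in each line. For T and NK cells it was 2 of 6, for B cells 2 of 4, for erythroid cells 2 of 3, for megakaryocytes 1 of 5, and for epithelial and stromal cells 1 of 5.

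SYK itself was measured first. Its brighter probe set read 6.16 and 6.16 with shSYK_1 and 5.62 and 5.35 with shSYK_2 in MOLM-14, against 8.49, 8.42 and 8.44 with shLuciferase. In U937 it read 7.02 and 6.97 with shSYK_1 and 6.57 and 6.55 with shSYK_2, against 8.66, 8.70 and 8.70 with shLuciferase. HL-60 gave 7.04 and 7.0 with shSYK_1 and 6.90 and 6.66 with shSYK_2, against 8.91, 9.05 and 9.0. All SYK hairpin arrays lay below all shLuciferase arrays of their line, with a mean difference of -2.21 ± 0.04 across lines (SE in this and later values, limma adjusted p = 1.09e-15). SYK was lower with shSYK_2 than with shSYK_1, by -0.45 ± 0.05 on average (limma adjusted p = 4.19e-06).

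**Figure D1:**
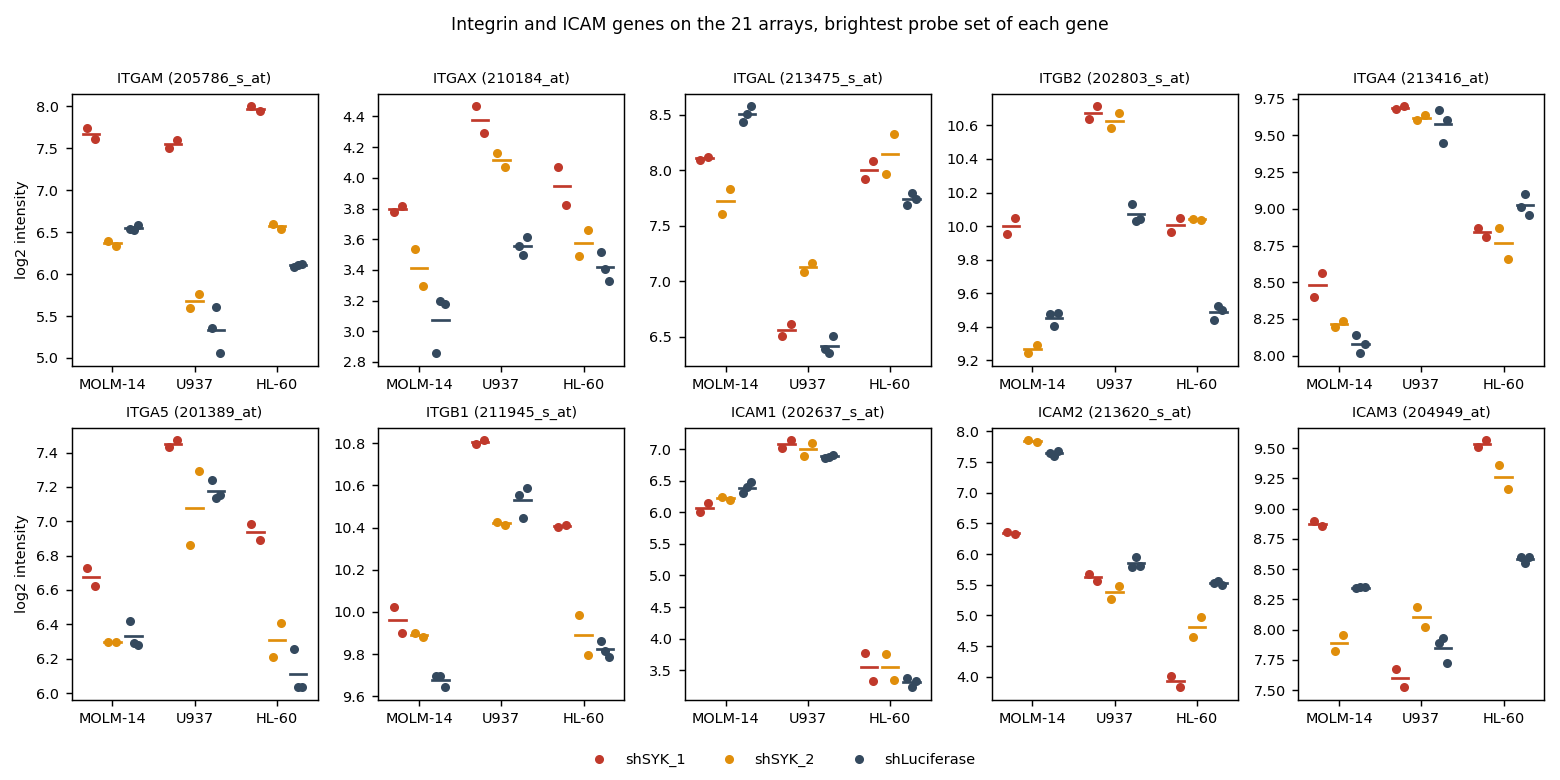
Log2 intensity (y axis) of each integrin and ICAM gene on its brightest probe set, by cell line (x axis), for shSYK_1, shSYK_2 and shLuciferase. Points are arrays and bars are group means. ITGAM with shSYK_1 stands above the other groups in all 3 lines, and ICAM2 with shSYK_1 stands lowest in MOLM-14 and HL-60.

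Averaged over the lines, ITGAM, ITGAX, ITGB2, ITGA5, ITGB1 and ICAM3 were higher after SYK knockdown, ICAM2 was lower, and ITGAL, ITGA4 and ICAM1 were not called. A probe set was called where limma's Benjamini-Hochberg adjusted p over all 22215 probe sets was below 0.05. For the mean of both SYK hairpins minus shLuciferase, averaged over the 3 lines, 6 member probe sets rose (13.9% of all probe sets rose) and 2 fell (15.4% fell). Each of the 6 genes rose on 1 probe set, and both that fell were those of ICAM2. Taken line by line, ITGA5 and ICAM3 were called higher in HL-60 alone. On average the 6 risers were lower with shSYK_2 than with shSYK_1 and ICAM2 was higher, so these averages join unlike hairpins. The median difference over the 20 was 0.05, against 0.00 over all probe sets.

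In MOLM-14 alone, 5 member probe sets rose (7.39% of all) and 4 fell (8.44%). U937 had 4 that rose (5.44%) and 1 that fell (6%). HL-60 had the highest count, with 9 that rose (8.88%) and 5 that fell (11.3%), and 12 in all were called there without the array with conflicting labels. In bulk RNA, fewer cells of a kind and less RNA per cell cannot be told apart.

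ITGAM, the alpha subunit of Mac-1 that also serves as complement receptor 3, had the largest rise among the members. Its brighter probe set read 7.74 and 7.60 with shSYK_1 and 6.40 and 6.34 with shSYK_2 in MOLM-14, against 6.54, 6.53 and 6.59 with shLuciferase. The U937 values were 7.50 and 7.60 with shSYK_1 and 5.60 and 5.76 with shSYK_2, against 5.35, 5.61 and 5.06. In HL-60 they were 8.0 and 7.94 with shSYK_1 and 6.60 and 6.53 with shSYK_2, against 6.09, 6.11 and 6.11. Thus shSYK_1 arrays were the highest of each line, while shSYK_2 arrays overlapped shLuciferase in U937, lay above it in HL-60 and lay below it in MOLM-14.

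With shSYK_1 the ITGAM rise was 4.64-fold in U937, 3.64-fold in HL-60 and 2.17-fold in MOLM-14 (limma adjusted p = 9.04e-10, 3.78e-09 and 1.55e-06). With shSYK_2 it was called in HL-60 alone among the 3 lines, with a rise of 0.46 ± 0.11, or 0.50 without the array with conflicting labels (limma adjusted p = 0.00809 and 0.0442). In MOLM-14 the shSYK_2 difference was -0.18 with a 95% interval of -0.42 to 0.05, and in U937 it was 0.34 with an interval of 0.10 to 0.57, neither called. The difference between hairpins was called in each line: shSYK_2 minus shSYK_1 was -1.87 in U937, -1.30 in MOLM-14 and -1.40 in HL-60, where it was -1.37 without the array with conflicting labels. ITGAM was higher with the hairpin that on average left more SYK RNA by the brighter SYK probe set. The second SYK probe set had the opposite order in HL-60. The part of SYK level in the ITGAM difference between hairpins was not tested.

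Averaging both hairpins, ITGAM rose by 1.28 ± 0.09 in U937, 1.16 ± 0.09 in HL-60 (1.18 without the array with conflicting labels) and 0.47 ± 0.09 in MOLM-14. The MOLM-14 rise was the smallest, with MOLM-14 minus U937 at -0.81 ± 0.13 and MOLM-14 minus HL-60 at -0.70 ± 0.13 (limma adjusted p = 0.0023 and 0.004), or -0.71 without that array (limma adjusted p = 0.006). With that array placed in HL-60 shSYK_1, the MOLM-14 rise of 0.47 and MOLM-14 minus U937 of -0.81 kept their sizes, which the move cannot touch, but were not called with the spread that this grouping gives (limma adjusted p = 0.261 and 0.375). MOLM-14 minus HL-60 became -0.47 and was not called (limma adjusted p = 0.629). With the mean of both ITGAM probe sets the line differences were -0.38 and -0.24, not called (limma adjusted p = 0.074 and 0.219). The second ITGAM probe set lay in the dimmest 40%, read 2.45 to 3.23 on all arrays, and was not called in any of these comparisons.

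ITGAX, the alpha subunit of p150,95, a complement receptor of monocytes and dendritic cells, rose in all 3 lines. It was dim, at percentile 41.3 of mean intensity, and its shLuciferase arrays in all 3 lines read near or below the 40th percentile of 3.57, so the size of its differences is uncertain. MOLM-14 read 3.78 and 3.82 with shSYK_1 and 3.53 and 3.29 with shSYK_2, against 2.86, 3.19 and 3.18 with shLuciferase. U937 read 4.47 and 4.29 with shSYK_1 and 4.16 and 4.07 with shSYK_2, against 3.56, 3.50 and 3.61. In these lines every SYK hairpin array was above every shLuciferase array.

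HL-60 ITGAX read 4.07 and 3.82 with shSYK_1 and 3.49 and 3.66 with shSYK_2, against 3.52, 3.41 and 3.33, with overlap between shSYK_2 and shLuciferase. The rise was 0.69 ± 0.09 in U937, 0.53 ± 0.09 in MOLM-14 and 0.34 ± 0.09 in HL-60 (limma adjusted p = 9.92e-05, 0.000786 and 0.0141). With shSYK_1 alone ITGAX rose in each line, by 0.82 in U937, 0.72 in MOLM-14 and 0.53 in HL-60, and with shSYK_2 alone it rose in U937 by 0.56 and was not called at 0.34 in MOLM-14 and 0.16 in HL-60. No difference between lines was called for ITGAX, and the interval for U937 minus HL-60 was 0.07 to 0.63. Without the array with conflicting labels the HL-60 rise was 0.30 and not called (limma adjusted p = 0.0524), and it was also lost without HL-60 shLuciferase replicate 3 or shSYK_1 replicate 1 (limma adjusted p = 0.0708 and 0.0616).

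ITGAL, the alpha subunit of LFA-1 and the main ICAM receptor of lymphocytes and monocytes, moved in opposite directions between lines. In MOLM-14 it read 8.10 and 8.12 with shSYK_1 and 7.60 and 7.84 with shSYK_2, against 8.44, 8.51 and 8.58 with shLuciferase, so all SYK hairpin arrays were lower. U937 read 6.50 and 6.62 with shSYK_1 and 7.09 and 7.17 with shSYK_2, against 6.39, 6.35 and 6.50, with shSYK_2 clearly above. HL-60 read 7.92 and 8.09 with shSYK_1 and 7.97 and 8.33 with shSYK_2, against 7.69, 7.79 and 7.74, so all SYK hairpin arrays were higher.

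The ITGAL difference was -0.59 ± 0.08 in MOLM-14, against rises of 0.34 ± 0.08 in HL-60 and 0.43 ± 0.08 in U937, each called (limma adjusted p = 0.00013, 0.0084 and 0.00261). Averaged over the lines it was 0.06 and not called (limma adjusted p = 0.423). MOLM-14 minus U937 was -1.02 ± 0.12 and MOLM-14 minus HL-60 was -0.93 ± 0.12 (limma adjusted p = 0.000104 and 0.000138). Leaving out the array with conflicting labels gave 0.25 in HL-60 and -0.84 for MOLM-14 minus HL-60, both called (limma adjusted p = 0.0357 and 0.000138). Between hairpins, shSYK_2 minus shSYK_1 was -0.39 in MOLM-14 and 0.57 in U937, both called.

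ITGB2, the beta subunit shared by the 3 alpha subunits above, rose in U937 and HL-60 with either hairpin. U937 read 10.64 and 10.71 with shSYK_1 and 10.58 and 10.67 with shSYK_2, against 10.13, 10.03 and 10.04 with shLuciferase. HL-60 read 9.96 and 10.05 with shSYK_1 and 10.04 and 10.04 with shSYK_2, against 9.44, 9.53 and 9.5. The groups did not overlap in either line.

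MOLM-14 ITGB2 read 9.95 and 10.05 with shSYK_1 and 9.24 and 9.29 with shSYK_2, against 9.48, 9.41 and 9.48, with shSYK_1 above and shSYK_2 below the shLuciferase arrays. Its rise with shSYK_1 was 0.54 ± 0.07, its shSYK_2 difference was -0.19 ± 0.07 (limma adjusted p = 1.34e-05 and 0.0691), and the hairpin difference of -0.73 was called (limma adjusted p = 1.13e-06). The mean of both hairpins, 0.18 ± 0.06 (limma adjusted p = 0.0368), lost its call when any one of the 3 shLuciferase arrays, shSYK_1 replicate 2 or either shSYK_2 array of MOLM-14 was left out (limma adjusted p = 0.0629 to 0.144). In U937 the rise was 0.58 ± 0.06 and in HL-60 it was 0.53 ± 0.06 (0.54 without the array with conflicting labels).

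ITGA4, the alpha subunit of VLA-4, fell in HL-60 on all 3 of its probe sets, by 0.22, 0.34 and 0.43. Its brightest probe set read 8.87 and 8.81 with shSYK_1 and 8.87 and 8.66 with shSYK_2 in HL-60, against 9.01, 9.10 and 8.96 with shLuciferase, without overlap. Without the array with conflicting labels the fall was called on the dimmest of the 3 probe sets (-0.40, limma adjusted p = 0.0367) and lost on the others (limma adjusted p = 0.131 on the brightest and 0.0984 on the next). None of the 3 was called without HL-60 shLuciferase replicate 1 (limma adjusted p = 0.079, 0.112 and 0.0532 in order of brightness). The 2 brighter ones were also lost without shLuciferase replicate 2 (limma adjusted p = 0.15 and 0.0647) or shSYK_1 replicate 2 of HL-60 (limma adjusted p = 0.0977 and 0.103), and the brightest without shSYK_1 replicate 1 (limma adjusted p = 0.0516).

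MOLM-14 ITGA4 read 8.40 and 8.56 with shSYK_1 and 8.19 and 8.24 with shSYK_2 on the brightest probe set, against 8.14, 8.02 and 8.08. It rose by 0.27 ± 0.07 (limma adjusted p = 0.0151), a call lost without shLuciferase replicate 2, shSYK_1 replicate 2 or shSYK_2 replicate 2 of MOLM-14 (limma adjusted p = 0.0747, 0.0638 and 0.0509). The other 2 probe sets gave 0.21 and 0.22 in MOLM-14, not called. In U937 the brightest read 9.68 and 9.70 with shSYK_1 and 9.60 and 9.64 with shSYK_2, against 9.67, 9.45 and 9.61, and none of the 3 was called.

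ITGA5, the alpha subunit of the fibronectin receptor, rose in HL-60 and was not called in the other lines. HL-60 read 6.98 and 6.89 with shSYK_1 and 6.21 and 6.41 with shSYK_2, against 6.26, 6.04 and 6.03 with shLuciferase. MOLM-14 read 6.73 and 6.63 with shSYK_1 and 6.30 and 6.30 with shSYK_2, against 6.42, 6.29 and 6.28. U937 read 7.43 and 7.47 with shSYK_1 and 6.86 and 7.29 with shSYK_2, against 7.24, 7.14 and 7.15. The shSYK_1 arrays were the highest of each line, and the shSYK_2 arrays overlapped shLuciferase in all 3. The HL-60 rise was 0.51 ± 0.09 (limma adjusted p = 0.000573), 0.46 without the array with conflicting labels. With shSYK_1 ITGA5 rose by 0.83 in HL-60 and 0.35 in MOLM-14, and the hairpin difference was called in each line, at -0.63 in HL-60 (-0.73 without the array with conflicting labels), -0.38 in MOLM-14 and -0.37 in U937. The U937 response differed from that of HL-60 by -0.43, with an interval of -0.70 to -0.15, and was not called (limma adjusted p = 0.0717).

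ITGB1, the beta subunit that ITGA4 and ITGA5 share, rose on its brightest probe set by 0.25 ± 0.06 in MOLM-14 and 0.33 ± 0.06 in HL-60 (0.38 without the array with conflicting labels). MOLM-14 read 10.02 and 9.90 with shSYK_1 and 9.90 and 9.88 with shSYK_2, against 9.69, 9.70 and 9.64 with shLuciferase, without overlap. HL-60 read 10.40 and 10.41 with shSYK_1 and 9.99 and 9.80 with shSYK_2, against 9.86, 9.81 and 9.79, where the array with conflicting labels, at 9.80, was the one SYK hairpin array not above shLuciferase. The HL-60 shSYK_1 rise was 0.59 and the shSYK_2 difference 0.07, and the hairpin difference of -0.52 was called (limma adjusted p = 0.000191). Without that array they were 0.59, 0.17 and -0.42, the last still called (limma adjusted p = 0.00419), and U937 minus HL-60 was called at -0.29 (limma adjusted p = 0.042).

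In U937 ITGB1 read 10.80 and 10.81 with shSYK_1 and 10.42 and 10.41 with shSYK_2, against 10.55, 10.45 and 10.59, with shSYK_1 above and shSYK_2 below all shLuciferase arrays. The other 4 ITGB1 probe sets all lay in the dimmest 40% and read 1.93 to 3.38. The brightest of these 4 was called in HL-60 (0.27, limma adjusted p = 0.0271). That call was lost without any of HL-60 shLuciferase replicates 2 and 3, shSYK_1 replicates 1 and 2 or shSYK_2 replicate 2 (limma adjusted p = 0.0552 to 0.145). With the mean of the 5 probe sets in place of the brightest, neither the MOLM-14 nor the HL-60 rise of ITGB1 was called (limma adjusted p = 0.166 and 0.0535).

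**Figure D2:**
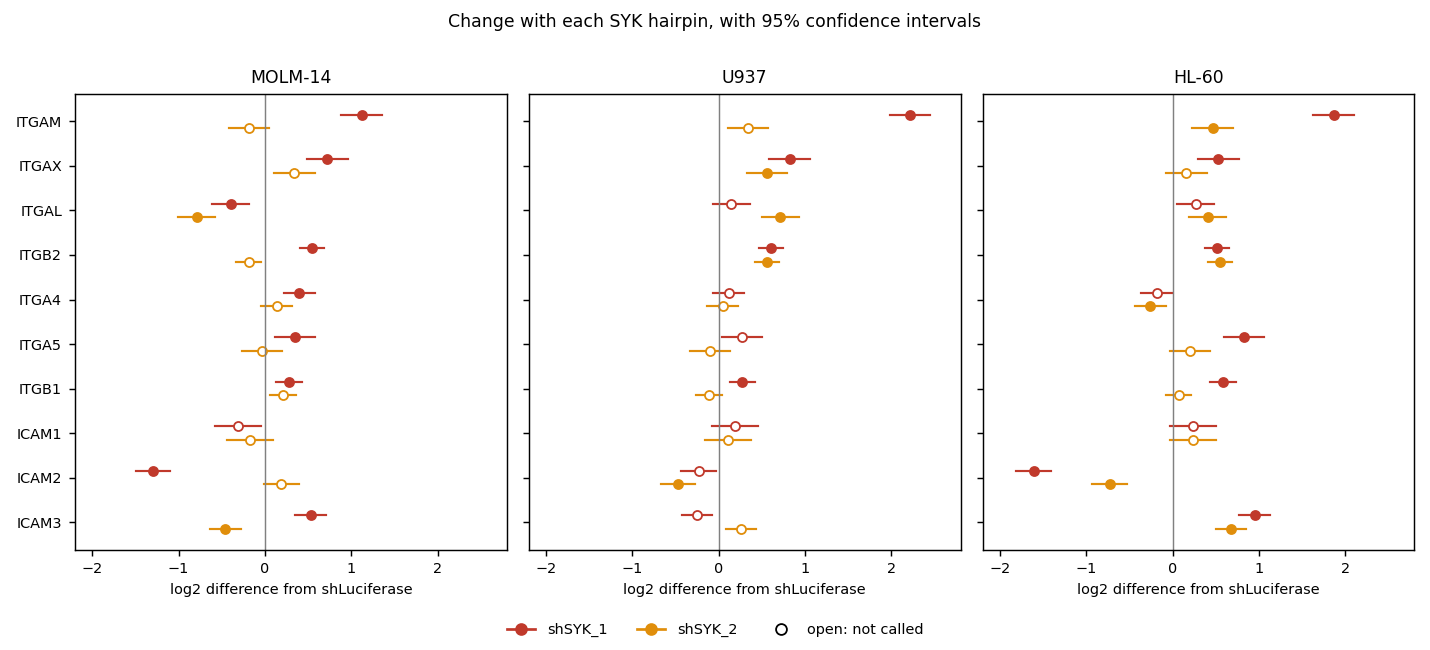
Log2 difference from shLuciferase (x axis) for each gene's brightest probe set, with shSYK_1 and shSYK_2 in each line. Bars are 95% confidence intervals and open circles were not called. For ITGAM the shSYK_1 points lie between 1.12 and 2.21 and the shSYK_2 points between -0.18 and 0.46, and in MOLM-14 ICAM3 was called in opposite directions with the hairpins.

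ICAM1, an inducible ligand of LFA-1 and Mac-1, was not called in any line on its brightest probe set. In MOLM-14 it read 6.0 and 6.15 with shSYK_1 and 6.24 and 6.20 with shSYK_2, against 6.30, 6.40 and 6.47 with shLuciferase. U937 read 7.02 and 7.14 with shSYK_1 and 6.90 and 7.09 with shSYK_2, against 6.86, 6.88 and 6.91. HL-60 read 3.78 and 3.32 with shSYK_1 and 3.76 and 3.34 with shSYK_2, against 3.38, 3.23 and 3.33, near the 40th percentile of all probe sets (3.57). The differences were 0.24 in HL-60, 0.15 in U937 and -0.24 in MOLM-14. Without the array with conflicting labels the HL-60 difference was called at 0.34, and without HL-60 shSYK_1 replicate 2 at 0.35 (limma adjusted p = 0.0277 and 0.0214).

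A second ICAM1 probe set fell in MOLM-14 and rose in HL-60. It read 5.59 and 5.58 with shSYK_1 and 5.95 and 6.0 with shSYK_2 in MOLM-14, against 6.10, 6.25 and 6.19. In HL-60 it read 3.50 and 3.85 with shSYK_1 and 3.44 and 3.28 with shSYK_2, against 3.06, 2.76 and 3.12. The groups were apart in both lines, with differences of -0.40 ± 0.09 and 0.54 ± 0.09 (limma adjusted p = 0.00552 and 0.000398), and MOLM-14 minus HL-60 was -0.94 ± 0.13 (limma adjusted p = 0.000254). In HL-60 its shLuciferase arrays and 3 of the 4 SYK hairpin arrays lay under the 40th percentile of 3.57, so the size of the HL-60 and line differences is uncertain. Without the array with conflicting labels these were 0.58 and -0.98. The third probe set was not called in any line.

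ICAM2, a constitutive ligand of LFA-1 on leukocytes and endothelium, was the one gene of the 10 that fell on average, by -0.69 ± 0.05 on its brighter probe set. In HL-60 it read 4.02 and 3.83 with shSYK_1 and 4.64 and 4.97 with shSYK_2, against 5.53, 5.57 and 5.50 with shLuciferase. U937 read 5.68 and 5.56 with shSYK_1 and 5.27 and 5.49 with shSYK_2, against 5.79, 5.95 and 5.81. In both lines all SYK hairpin arrays were below all shLuciferase arrays.

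MOLM-14 ICAM2 read 6.36 and 6.33 with shSYK_1 and 7.85 and 7.82 with shSYK_2, against 7.65, 7.60 and 7.68, with shSYK_1 far below and shSYK_2 slightly above. There the shSYK_1 difference was -1.29 ± 0.10 and the shSYK_2 difference 0.19 ± 0.10 (limma adjusted p = 5.52e-08 and 0.227), and shSYK_2 minus shSYK_1 was 1.49 ± 0.10 (limma adjusted p = 2.83e-08). The second probe set gave -1.52, 0.20 and 1.72 for the same 3 differences. Over both hairpins the fall was -1.17 ± 0.08 in HL-60 and -0.35 ± 0.08 in U937 (limma adjusted p = 2.4e-08 and 0.00715), with U937 minus HL-60 at 0.82 ± 0.11 (limma adjusted p = 0.000363), or 0.90 without the array with conflicting labels.

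The second ICAM2 probe set gave -1.12 in HL-60, called, and -0.29 in U937, not called (limma adjusted p = 0.0622), although it was called without U937 shSYK_1 replicate 1 or either HL-60 shSYK_1 array (limma adjusted p = 0.0255 and 0.0394). The second probe set read below 3.57 on all HL-60 SYK hairpin arrays, so the size of that fall is uncertain. Without the array with conflicting labels the HL-60 fall was -1.25 and -1.13 on the 2 probe sets. With that array placed in shSYK_1, the U937 and MOLM-14 falls on the brighter probe set kept their sizes of -0.35 and -0.55, which the move cannot touch, but were not called (limma adjusted p = 0.291 and 0.0519).

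ICAM3, a ligand of LFA-1 that resting leukocytes carry, rose in HL-60. It read 9.51 and 9.56 with shSYK_1 and 9.36 and 9.16 with shSYK_2 there, against 8.60, 8.55 and 8.60 with shLuciferase, with all SYK hairpin arrays above. The rise was 0.81 ± 0.07 (limma adjusted p = 3.24e-07), or 0.86 without the array with conflicting labels, and exceeded the response of U937 and of MOLM-14 (U937 minus HL-60 -0.81 ± 0.10, MOLM-14 minus HL-60 -0.78 ± 0.10, limma adjusted p = 0.000102 and 0.00012). Without that array these differences were -0.86 and -0.83.

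In MOLM-14 ICAM3 read 8.90 and 8.86 with shSYK_1 and 7.83 and 7.95 with shSYK_2, against 8.34, 8.35 and 8.35. The mean difference of 0.04 joined a rise of 0.53 ± 0.08 with shSYK_1 and a fall of -0.46 ± 0.08 with shSYK_2 (limma adjusted p = 0.000179 and 0.00119). U937 read 7.67 and 7.52 with shSYK_1 and 8.19 and 8.02 with shSYK_2, against 7.89, 7.93 and 7.72, the opposite order. The hairpin difference was -0.99 ± 0.09 in MOLM-14 and 0.51 ± 0.09 in U937, both called (limma adjusted p = 5.97e-07 and 0.000659).

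**Figure D3:**
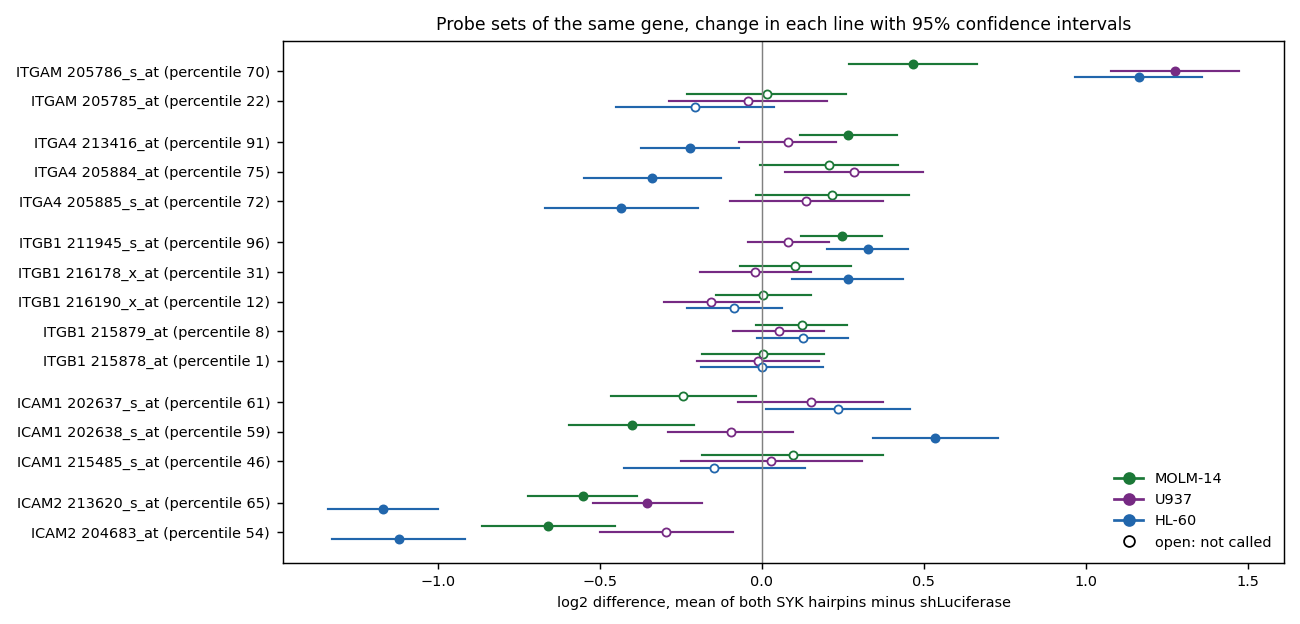
Log2 difference of the mean of both SYK hairpins from shLuciferase (x axis) for every probe set of the genes with more than 1, by line. Bars are 95% confidence intervals, open circles were not called, and the percentile is that of mean intensity among all probe sets. The 2 ICAM2 probe sets lie below 0 in all 3 lines. The dim ITGAM and ITGB1 probe sets were not called in any line, except the brightest dim ITGB1 probe set, called higher in HL-60.

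Taken hairpin by hairpin, the members differed in how many were called. In MOLM-14, shSYK_1 changed 11 of the 20 probe sets (20.5% of all probe sets were called) and shSYK_2 changed 2 (13.8%). In U937 each hairpin changed 4 (13.2% of all for shSYK_1 and 13.1% for shSYK_2). In HL-60 each changed 10 (19.4% of all for shSYK_1 and 18.3% for shSYK_2). The 2 of 20 for shSYK_2 in MOLM-14 is 10%, near the background share. Both hairpins of a line were set against the same 3 shLuciferase arrays, so the values of the 2 hairpins are not independent.

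The 2 hairpins were also compared directly. Averaged over the lines, 8 member probe sets differed between shSYK_2 and shSYK_1 (30.7% of all probe sets), 6 of them lower with shSYK_2. The count within a line was 5 for U937 (19%), 7 for HL-60 (18.3%) and 9 for MOLM-14 (21.5%). The 6 that were lower with shSYK_2 were ITGAM, ITGAX, ITGB2, ITGA5, ITGB1 and ICAM3, and the 2 higher were those of ICAM2. With the array of conflicting labels placed in shSYK_1, the counts over the average and the 3 lines came to 15, against 29 as grouped here.

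Between lines, the response differed for 3 member probe sets in MOLM-14 minus U937 (2.48% of all probe sets), 9 in MOLM-14 minus HL-60 (5.91%) and 6 in U937 minus HL-60 (4.79%). The 3 of the first comparison were ITGAM, ITGAL and ITGB2, each with a lower response in MOLM-14. ITGA4, ICAM1, ICAM2 and ICAM3 made up the 6 of the last comparison, on 2, 1, 2 and 1 probe sets. All SYK hairpin arrays lay on one side of shLuciferase for 7 member probe sets in MOLM-14 (17.4% of all), 5 in U937 (15.4%) and 10 in HL-60 (19.9%).

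The shLuciferase arrays gave the level of each gene in the lines with SYK left intact. Of the 20 probe sets, 17 differed between MOLM-14 and U937 (46.6% of all), 12 between MOLM-14 and HL-60 (43.9%) and 15 between U937 and HL-60 (47.9%). The brightest ICAM1 probe set averaged 6.39 in MOLM-14 and 6.88 in U937, against 3.32 in HL-60, and the second averaged 6.18 in MOLM-14 and 6.89 in U937, against 2.98 in HL-60. HL-60 lay under the 40th percentile on both, so no fold is given. ITGAL was 4.27-fold higher in MOLM-14 than in U937, and ICAM2 was 4.32-fold higher in MOLM-14 than in HL-60.

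On the brightest probe sets, ITGAM and ITGAL ran MOLM-14, HL-60, U937 in descending order, with each step called. ITGA4 ran U937, HL-60, MOLM-14 with each step called. ITGB2 and ITGB1 followed the same order as ITGA4, but HL-60 and MOLM-14 were not called apart (MOLM-14 minus HL-60 -0.03 for ITGB2 and -0.14 for ITGB1, intervals -0.16 to 0.09 and -0.28 to -0.01, limma adjusted p = 0.695 and 0.0773). ITGAX also followed it, and there U937 and HL-60 were not called apart. ITGA5 and ICAM1 ran U937, MOLM-14, HL-60, with MOLM-14 and HL-60 not called apart for ITGA5. ICAM2 ran MOLM-14, U937, HL-60 and ICAM3 ran HL-60, MOLM-14, U937, with each step called.

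Other genes of integrin adhesion were counted in 6 lists by the brightest probe set of each gene. The counts are for the average over the lines, where 16.4% of 12165 genes rose and 16.3% fell. The hairpins were not taken apart for these genes. Of 16 other integrin subunits, 3 rose and 0 fell (median 0.01). ITGB7, the beta partner of ITGA4 in the gut-homing integrin, rose by 0.61 ± 0.05 (limma adjusted p = 7.35e-08), most in HL-60 at 1.38. ITGA7, a laminin receptor subunit, rose by 0.22, and ITGB4 of epithelial hemidesmosomes by 0.19. Their probe sets were of middling to low brightness, at percentiles 60.1 and 41.0.

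Of 14 genes of inside-out activation, by which signals inside the cell open the integrin, 6 rose and 2 fell (median 0.10). RASGRP2, the exchange factor that activates RAP1, fell by -0.58 ± 0.04 (limma adjusted p = 2.79e-08). Its difference was -1.15 in MOLM-14, -0.48 in HL-60 and -0.10 in U937, the last not called. The GTPase RAP1A rose by 0.25, the adaptor SKAP2 by 0.27, and ITGB1BP1, which binds the tail of ITGB1, by 0.18. The second gene to fall was the kinase STK4 (-0.30), named after its value was seen.

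Outside-in signalling genes, which act after ligand binding, had 6 of 19 that rose and 0 that fell (median 0.07) in a list that does not hold SYK. TYROBP and FCER1G, the adaptors that link beta2 integrins to SYK in mouse phagocytes, rose by 0.72 ± 0.04 and 0.53 ± 0.04 (limma adjusted p = 7.9e-10 and 1.36e-08). FCER1G fell in MOLM-14 (-0.64) and rose in U937 (1.06) and HL-60 (1.17). The SRC family kinase FGR rose by 0.44 and the actin regulator WAS by 0.38. FGR was called higher for HL-60 (0.94) and U937 (0.56), whereas its MOLM-14 difference of -0.18 was not called.

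Of 15 genes linking integrins to actin, 7 rose and 1 fell (median 0.08), among the risers LIMS1, a partner of integrin-linked kinase (0.43), the actin-binding protein CORO1A (0.24), and the focal adhesion proteins ZYX (0.21) and VASP (0.20). EVL, a relative of VASP, was the one that fell (-0.22) and was named after its value was seen. Of 13 other integrin ligands, 3 rose and 0 fell (median 0.06). They were ICAM4, the red cell ICAM, by 0.33 with 0.89 in HL-60, the matrix protein THBS1 by 0.22, and CDH1, a ligand of the mucosal integrin of ITGB7, by 0.14 at a dim percentile of 25.1. Of 10 selectin ligands and other adhesion molecules, 6 rose and 0 fell (median 0.20). The risers included PECAM1 of endothelial contacts (0.52), the hyaluronan receptor CD44 and the P-selectin ligand SELPLG (0.38 each). CD58, the ligand of CD2, rose by 0.29. In MOLM-14, U937 and HL-60 in turn, PECAM1 changed by 0.32, 0.17 and 1.05, and CD44 by 0.21, 0.13 and 0.81. SELPLG changed by 0.30, 0.37 and 0.49, and CD58 by -0.05, 0.20 and 0.72.

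**Figure D4:**
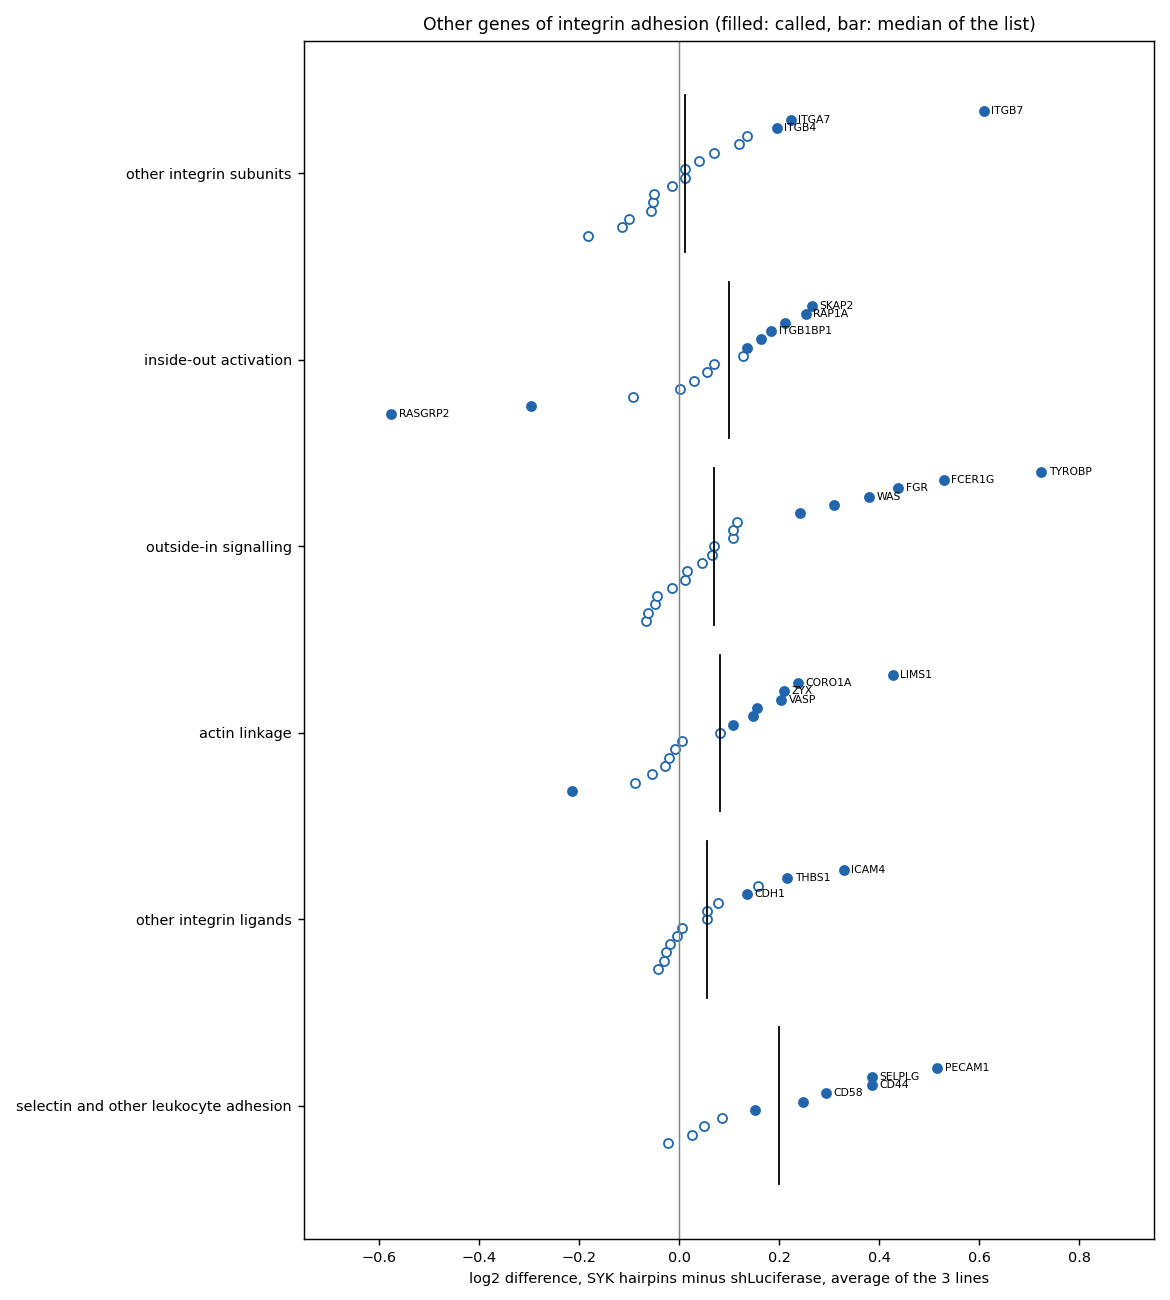
Log2 difference of the SYK hairpins from shLuciferase, averaged over the 3 lines (x axis), for the genes of 6 adhesion lists (y axis), 1 point per gene. Filled points were called, bars are list medians and the named genes are the called ones with the smallest p. TYROBP lies at 0.72 and RASGRP2 at -0.58, while the medians run between 0.01 and 0.20.

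Genes whose pattern was most like each beta2 subunit were ranked by Pearson r over the 21 arrays after each line's mean was removed, among 8059 genes above the dimmest 40%, as a description in which the points share lines and hairpins. For ITGAM they were DBI (0.96), CLIC1 (0.96) and ATP6V0D1 (0.96). ITGAX was closest to NAGK (0.92), GHITM (0.90) and TOM1 (0.90), and ITGB2 to GSTO1 (0.96), FCGR2C (0.95) and CLN3 (0.95), where the FCGR2C probe set can also read its near-identical paralogs. ITGAL had lower values, with MRC2 (0.78), PAQR6 (0.76) and FBXL15 (0.75).

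Promoter sequence was available for ITGAM, ITGA4, ITGA5, ITGB1, ICAM1 and ICAM3, as the 250 bases before and 50 bases from a start listed by RefSeq (GRCh38.p14). The motif GAGGAA, the core bound by the myeloid factor PU.1 and other ETS proteins, was searched on both strands. RefSeq lists 3 starts for ICAM3, 2 for ITGB1 and 1 for each of the others, 9 windows in all. The motif occurred in 4 of the 9 windows, from ITGAM, ITGB1 and ICAM3 (2 windows), and in 27.9% of 35116 windows of the same length. The ITGAM window, chr16:31259725-31260024 on the plus strand, is shown because ITGAM had the largest rise and 1 listed start. Capitals mark the motif or its reverse complement TTCCTC, and a match is a description of the letters, not of binding.
ITGAM: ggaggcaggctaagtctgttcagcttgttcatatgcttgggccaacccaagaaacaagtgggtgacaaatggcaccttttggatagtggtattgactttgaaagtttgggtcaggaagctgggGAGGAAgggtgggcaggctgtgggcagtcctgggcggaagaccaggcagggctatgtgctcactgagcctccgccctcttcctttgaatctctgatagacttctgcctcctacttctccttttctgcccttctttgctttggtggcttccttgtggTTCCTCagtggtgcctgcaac
The ICAM1 window held GGAAATTCC, a site form of NF-kB, which 0.461% of windows held, and the ITGA5 window held the AP-1 form TGANTCA, which 7.71% held.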

How the data were processed

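Total RNA of 21 cell line samples was measured on Affymetrix HT U133A arrays. The submitters' processing notes name RMA, with no version, for the deposited intensity values of the authors. Their range, 3.23 to 13025, is linear, and they were converted to log2 without a pseudocount. RMA brings arrays towards one distribution and compresses fold changes of dim probe sets. The deposited arrays still differed, with medians of 18.4 to 20.6. HL-60 shSYK_2 replicate 1 had an upper quartile of 122, against 134 to 140 on the others. The number of arrays limits the precision.

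All 22215 probe sets that are not Affymetrix controls entered one limma 3.58.1 model (R 4.3.3) with a mean for each of 9 groups, 12 residual and 4.47 prior degrees of freedom. Tests were two-sided, with Benjamini-Hochberg adjustment over all probe sets and calls below 0.05. The model was tested on simulated data in which both SYK hairpins had the same shift in every line. That setting does not cover hairpins or lines that disagree. Symbols came from the platform annotation and were matched by gene ID to RefSeq names (GRCh38.p14) for 19707 probe sets. Of the others, 568 had several symbols and 1923 none, and stayed unnamed.

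The brightest probe set by mean over all arrays stood for a gene. All member probe sets were named or counted, and up to 4 called genes with the smallest p in each adhesion list. Genes alike were the top 3 by r. The members and lists were chosen with earlier results of these data known. Alternatives were 1 feature per gene, a dim filter, median centring, quantile normalization, log2(value + 16), a trended and robust prior, array weights, one line alone, other placements of the HL-60 array with conflicting labels, the replicate block and leaving out each array.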

Additional observations from a re-analysis of the deposited data

Results flagged for a closer look

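The following responses, each the mean of both SYK hairpins minus shLuciferase, differed between lines by a test of the difference itself in limma (adjusted p below 0.05 over all probe sets), and 18 member values did so. Differences are on the log2 scale.

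ITGAM, ITGAL and ITGB2 had lower responses in MOLM-14. MOLM-14 minus U937 was -0.81 for ITGAM, -1.02 for ITGAL and -0.40 for ITGB2. MOLM-14 minus HL-60 was -0.70 for ITGAM, -0.93 for ITGAL and -0.36 for ITGB2. The MOLM-14 means join unlike hairpins for 2 of these genes. ITGB2 averaged 10.0 with shSYK_1 and 9.27 with shSYK_2, against 9.46 with shLuciferase, and ITGAM 7.67 and 6.37, against 6.55. Hairpins also differed in size elsewhere. In U937 ITGAM averaged 7.55 with shSYK_1 and 5.68 with shSYK_2, against 5.34, and in HL-60 7.97 and 6.57, against 6.10. ITGAL averaged 6.56 and 7.13 in U937, against 6.41, and 8.11 and 7.72 in MOLM-14, against 8.51. In HL-60 ITGAL averaged 8.01 and 8.15, against 7.74. ITGB2 hairpin means were close in U937 (10.68 and 10.63) and HL-60 (10.01 and 10.04). The ITGAM differences were not called with the mean of both its probe sets, of which the second lay in the dimmest 40%. Their calls were also lost with the HL-60 array with conflicting labels placed in shSYK_1. That move cannot touch the size of MOLM-14 minus U937. ITGAM read 6.53 on that array, against 6.60 on the other HL-60 shSYK_2 array and 8.0 and 7.94 on the shSYK_1 arrays.

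For ITGA4, which fell in HL-60, MOLM-14 minus HL-60 was 0.49, 0.54 and 0.65 on its 3 probe sets. U937 minus HL-60 was 0.62 and 0.57 on the 2 dimmer of them. Without the HL-60 array with conflicting labels, the values were 0.47 for MOLM-14 minus HL-60 on the second brightest probe set (limma adjusted p = 0.0608) and 0.53 for U937 minus HL-60 on the dimmest (limma adjusted p = 0.0876), no longer called. The first of these was also lost without any 1 of 8 other arrays (limma adjusted p = 0.0557 to 0.0858) and the second without any 1 of 14 (limma adjusted p = 0.0515 to 0.114). MOLM-14 minus HL-60 on the dimmest was lost without MOLM-14 shSYK_2 replicate 1, HL-60 shLuciferase replicate 1 or HL-60 shSYK_1 replicate 2 (limma adjusted p = 0.0514, 0.058 and 0.0505), and U937 minus HL-60 on the second brightest without HL-60 shLuciferase replicate 1 (limma adjusted p = 0.0516).

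Among the ligands, the second ICAM1 probe set had -0.94 for MOLM-14 minus HL-60 and -0.63 for U937 minus HL-60. Most of its HL-60 arrays lay under the 40th percentile of 3.57, so the size of these differences is uncertain. The other ICAM1 probe sets had no called line difference. ICAM2 had 0.62 for MOLM-14 minus HL-60 and 0.82 for U937 minus HL-60 on its brighter probe set. On the other it had 0.82 for U937 minus HL-60, of uncertain size because all HL-60 SYK hairpin arrays lay under 3.57 there. ICAM3 had -0.78 for MOLM-14 minus HL-60 and -0.81 for U937 minus HL-60. The means of these 2 ligands also join unlike hairpins. In MOLM-14 ICAM3 averaged 8.88 with shSYK_1 and 7.89 with shSYK_2, against 8.35 with shLuciferase. There the brighter ICAM2 probe set averaged 6.35 and 7.83, against 7.64. In U937 ICAM3 averaged 7.60 and 8.10, against 7.85. No cause of the line differences was tested.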

How the results depend on the processing

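Of 13364 values of single probe sets under the alternatives, 0 reversed a called direction. Sign changes of values called under neither setting were counted apart and are not reversals here: there were 232, over 87 pairs of probe set and contrast, all with a reported size of at most 0.24. Counts of called member probe sets moved by over 1.5 times as follows. One feature per gene leaves fewer tests: the mean of the probe sets gave 3 for SYK, 9 for HL-60 and 25 for the control lines, and the brightest gave 3, 9 and 26, with 11 for the line difference of the response. As grouped here the counts were 6, 14, 44 and 18. With the HL-60 array with conflicting labels placed in shSYK_1, MOLM-14 had 5 (9 as grouped), HL-60 8, the hairpin difference 15 (29) and the line difference 9, which leaves 1 HL-60 shSYK_2 array. A model of one line alone, with fewer arrays, gave 9 for HL-60. Without overlap the brightest probe sets numbered 14, against 22 over all. The cause of the other changes was not tested.

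Same-numbered replicates did not pair: over 18 pairs the correlation of deviations from the group means was -0.20 to 0.08. In groups of 2 arrays the deviations mirror each other. The shSYK_1 with shSYK_2 correlation of a line is therefore the same for both replicates, and the 18 are not all separate values. The lowest, -0.20, was that of HL-60, which includes the array with conflicting labels. With the replicate block, MOLM-14 had 5 called, HL-60 9 and the line difference 10.

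Leaving out each array in turn gave 8 to 9 for the average, 7 to 10 for MOLM-14, 5 to 6 for U937, 11 to 14 for HL-60, 38 to 47 for single hairpins, 23 to 31 for the hairpin difference, 15 to 20 for the line difference, 40 to 46 for the control lines, 22 to 27 without overlap and 31 to 38 for list genes. The 5 member probe sets in the dimmest 40% carry little signal, and 2 arrays per hairpin leave wide intervals.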

Other observations

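Myeloid markers outside the adhesion genes were read on the same arrays. Averaged over the lines, CD14, the lipopolysaccharide co-receptor of monocytes, rose by 0.84 (limma adjusted p = 1.32e-07) and CSF3R, the receptor of granulocyte colony-stimulating factor, by 0.15 (limma adjusted p = 0.0311). MPO, the peroxidase of primary granules, fell by 0.49 (limma adjusted p = 1.16e-05). CD14 averaged 3.14 in MOLM-14 and 2.77 in U937, under the 40th percentile of 3.57, against 7.91 in HL-60. MPO averaged 3.34 in U937, also under it, against 5.67 in MOLM-14 and 12.5 in HL-60. Only averages over the lines and both hairpins are given for these markers. PTPRC, CSF1R and SPI1 (PU.1) were not called, at 0.10, 0.18 and -0.03. Among markers of other cell types, CD2 rose by 0.25 and CDH1 by 0.14, both in the dimmest 40%, and NKG7 fell by 0.16 (limma adjusted p = 0.0148, 0.0289 and 0.00492). The summed intensity of the T and NK list was 146 to 1430 on SYK hairpin arrays and 188 to 1328 on shLuciferase arrays. The part of these markers in the integrin results was not tested.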
